A study of Drosophila melanogaster with 4 samples.

Results

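The right arm of chromosome 3 (3R) of Drosophila melanogaster carried 1053 regions of significant H4K20me1 enrichment among the 5318 of the series-wide list. They are the enriched regions on 3R that start more than 2 Mb from the low-coordinate end of the arm, which is its centromere end. The same rule gave 1211 of the 6478 regions of ChIP replicate 1 and 1066 of the 5209 regions of ChIP replicate 2. The chromatin came from wild-type Oregon-R (Oregon-R-modENCODE) larvae at the L3 stage, was crosslinked with formaldehyde, and was immunoprecipitated with the antibody labelled H4K20me1, 3rd lot. There were 2 ChIP replicates and 2 inputs, 1 input for each ChIP, and a single condition. Separate collections for the replicates are not stated in the labels, and neither are the cell types or the sex. The spread between replicates may therefore be technical.

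H4K20me1 is the monomethylated form of lysine 20 of histone H4. In flies it is laid down by the methyltransferase PR-Set7, whose level varies with the cell cycle, and Suv4-20 converts it to higher methylation states. The mark is known from the bodies of genes, where it can extend over long stretches, and from studies of chromosome compaction and DNA replication. The deposited lists give where enriched chromatin started and ended, with 1 score per region, and do not give reads, so depth is unknown. Coordinates are 1-based on FlyBase release 5. Neither a genome nor a gene annotation of that release was used here, and each region is therefore given by its position alone.

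Along 3R the mark formed many short regions and a few long domains that held much of the marked sequence. The members covered 7.25 Mb, which is 28.0% of the 25.9 Mb beyond the limit. Replicate 1 covered 6.58 Mb and replicate 2 covered 6.46 Mb, or 25.2% ± 0.34 of the stretch (mean ± SD, n = 2). The median member was 3141 bp long, against a mean of 6882 bp, and lengths ran from 1001 to 90765 bp. The 73 members of 20 kb or more were 6.93% of the members and held 38.1% of their bases. In replicate 1 there were 55 such regions with 29.5% of the bases, and in replicate 2 there were 50 with 25.8%. The uneven split was thus present in each list, and 50% of the enriched bases lay in 126 members, 156 replicate 1 regions and 166 replicate 2 regions.

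The rule places a limit at 2 Mb. The last region outside it started at 1923660 and was 1421 bp long with a score of 0.42. The first member inside started at 2169662 and was 2079 bp long with a score of 0.37. Both were thus short and low-scored, and no series-wide region crossed the limit. The 2 Mb left out held 104 series-wide regions and was covered over 29.8% in replicate 1 and 28.2% in replicate 2. At the other end, the last member ran from 27882556 to 27894482 and ended 10571 bp before the end of the arm.

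The replicates shared most of the bases they marked on 3R. Replicate 2 took in 80.3% of the bases marked in replicate 1, and replicate 1 took in 81.9% of those marked in replicate 2. The bases common to both came to 5.29 Mb, out of 7.76 Mb marked in at least 1 (a Jaccard index of 68.2%). Of the members' bases, both replicates marked 72.9%, only replicate 1 marked 10.8%, only replicate 2 marked 12.5%, and neither marked 3.86%. The series-wide list took in 99.9% of the bases marked in both, 60.1% of those in replicate 1 alone and 77.3% of those in replicate 2 alone.

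Counted as regions, 667 of the 1053 members shared at least 1 bp with each replicate (63.3%, exact Clopper-Pearson 95% interval 60.4 to 66.3%), against 61.5% of all series-wide regions. These 667 members held 90.5% of the members' bases. A further 139 were found in replicate 1 only and 163 in replicate 2 only. Another 84 were found in neither (7.98%, 6.41 to 9.78%), against 8.25% of all series-wide regions. These 84 had a median length of 1200 bp, while the shortest region on 3R in each replicate list was 1301 bp. The shares on 3R lay close to those of the whole list, which includes 3R. The intervals here and below cover counting error over regions only.

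Length separated the members that both replicates held from those they did not. All 73 members of 20 kb or more (lower limit 95.1%) and all 119 of 10 to 20 kb (lower limit 96.9%) overlapped both replicates. Over all sequences the shares in these length classes were 100% and 99.3%. Between 5 and 10 kb, 169 of 174 members did so (97.1%, 93.4 to 99.1%), against 95.8% over all sequences. Between 2 and 5 kb it was 270 of 363 (74.4%, 69.6 to 78.8%), against 71.1%. Under 2 kb it was 36 of 324 (11.1%, 7.90 to 15.0%), against 9.28%. A long region meets another list more easily than a short one, and this part of the difference was not tested. The short class was thus mostly seen in 1 replicate or none. Of its members, 103 were in replicate 1 only, 106 in replicate 2 only and 79 in neither. The lists also began at unlike lengths on the arm: 1001 bp in the series-wide list and 1301 bp in each replicate list. How much this lowered the share of the short class was not tested.

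**Figure D1:**
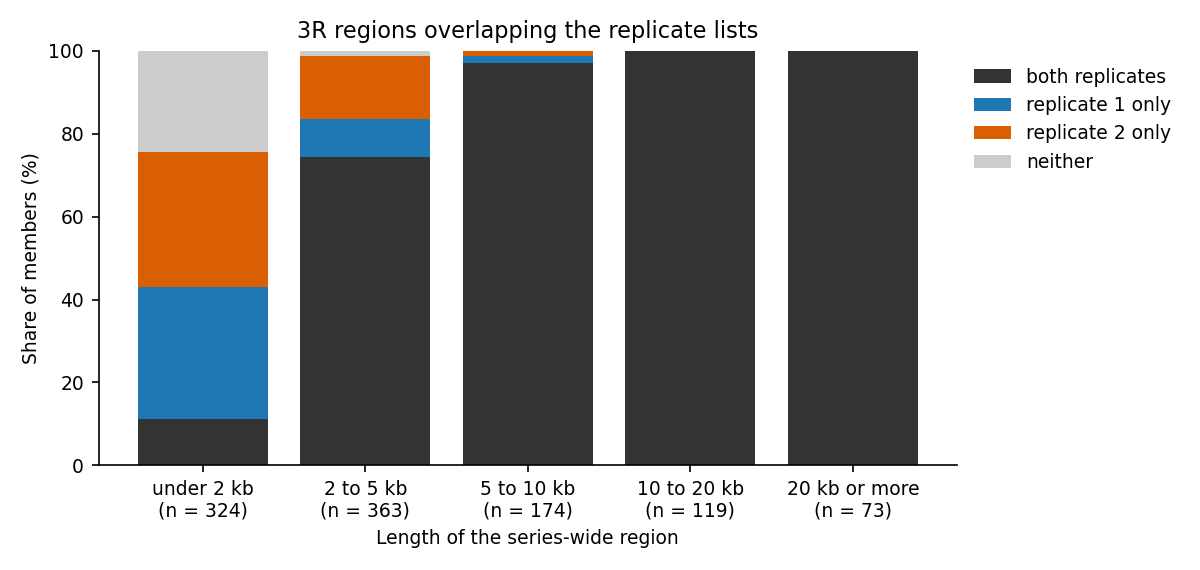
Share of the 3R members (vertical axis, percent) that overlap both replicates, 1 of them or neither, by length of the series-wide region (horizontal axis, number of members in brackets). The dark bar for both replicates stands at 11.1% under 2 kb and takes in all members from 10 kb upward.

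Within 1 length class the share followed the score, though length rose with the score there too. The authors' score is a log2 value whose offset is unknown, so it is used here to order regions within a list. Among members of 2 to 5 kb, 13 of the 55 with scores up to 0.35 were found in both replicates (23.6%, 13.2 to 37.0%). Above that and up to 0.45 it was 91 of 135 (67.4%, 58.8 to 75.2%), from there to 0.82 it was 125 of 132 (94.7%, 89.4 to 97.8%), and above 0.82 it was all 41 (lower limit 91.4%). These limits divide all 1053 members into 4 groups of like size. Among the members of 2 to 5 kb the median length also rose over these groups, from 2447 and 2661 to 3316 and 3923 bp. Score and length were thus not separated here. The series-wide score may draw on the same reads as the replicate lists, so this order describes the lists and is no independent test. Over all lengths the median score of the members was 0.69 for those found in both replicates, 0.36 and 0.32 for those in replicate 1 or 2 only, and 0.34 for those in neither. The 84 members in neither replicate were at most 2829 bp long (25900300 to 25903128, score 0.27) and scored at most 0.50.

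Seen from the replicate lists, 907 of the 1211 replicate 1 regions were found in replicate 2 (74.9%, 72.4 to 77.3%), against 66.4% over all sequences. Of the 1066 replicate 2 regions, replicate 1 held 875 (82.1%, 79.6 to 84.3%), against 82.9%. Of the regions under 2 kb, 48.1% of 432 in replicate 1 and 57.4% of 265 in replicate 2 were found in the other replicate. The series-wide list had no member on 182 replicate 1 regions and 55 replicate 2 regions, none of them 5 kb or longer. Of those, 169 and 45 lay in no other list.

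Longer regions had the higher scores. Spearman's rho between length and score across the regions was 0.80 in the series-wide list (1053 regions), 0.70 in replicate 1 (1211) and 0.84 in replicate 2 (1066). Across regions of a list this is a description, because regions share a library, and how the score sums up a region is not stated. The relation was closest between 2 and 5 kb, where rho was 0.49 in the series-wide list, 0.43 in replicate 1 and 0.48 in replicate 2. From 10 to 20 kb it was 0.05, 0.20 and -0.01. Under 2 kb it was -0.32 in the series-wide list, against 0.01 in replicate 1 and -0.06 in replicate 2. The median score of the members was 0.33 under 2 kb and 0.44, 0.80, 0.97 and 1.08 in the classes above.

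**Figure D2:**
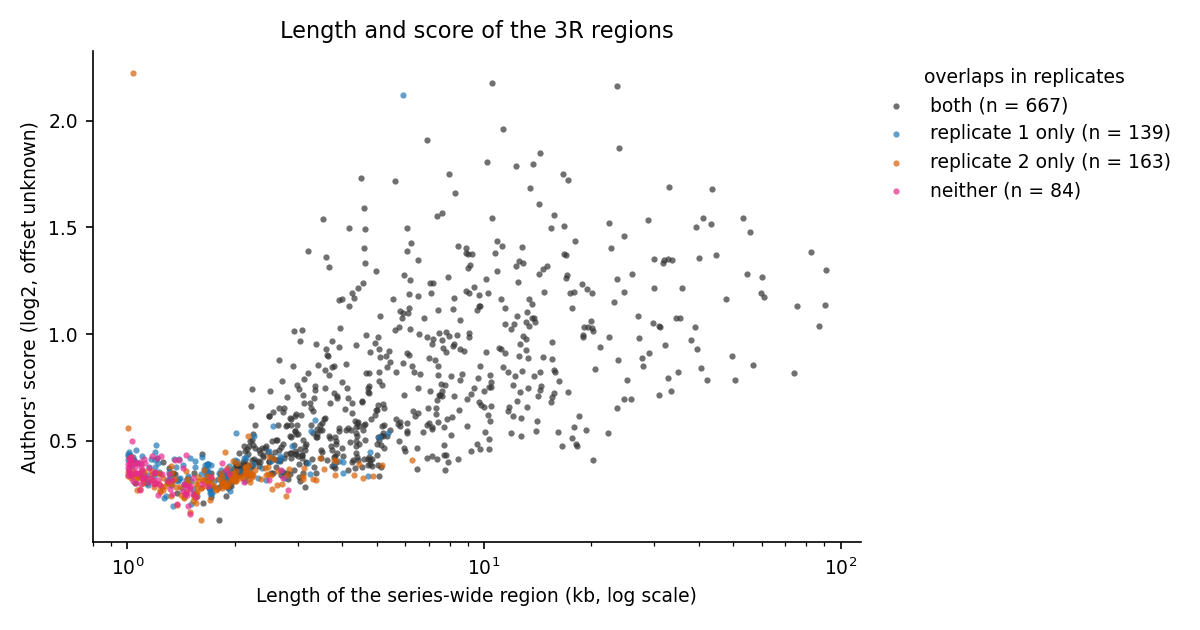
Length (horizontal axis, kb, log scale) and authors' score (vertical axis, log2, offset unknown) of the 1053 members, coloured by the replicates they overlap. Members missing from a replicate crowd the lower left, and 2 of them stand apart at scores of 2.12 and 2.22.

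A pair of members broke this order, and they were singled out after their values were seen. The member with the highest score of all, 2.22, was only 1035 bp long (27160322 to 27161356). No replicate region on the arm was shorter than 1301 bp. Replicate 1 had no region there, and replicate 2 had 1 region that covered 14.0% of it, with a score of 0.61 that placed it 680th of the 1066 replicate 2 regions on the arm. The other was a member of 5.93 kb from 17126188 to 17132112 with a score of 2.12. Inside it lay the highest-scored region of the whole replicate 1 list (17127000 to 17130405, score 4.23), while replicate 2 had none. The next member towards the centromere ended 5 bp before it and was found in both replicates (17121662 to 17126182, score 1.73, 100% covered in replicate 1 and 96.7% in replicate 2). At neither place did both replicates have a region.

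The edges of simple regions were mostly placed less than 1 kb apart in the replicates. For 361 members with exactly 1 region in each replicate and no region shared with another member, the 722 edges differed between replicates by a median of 365 bp (quartiles 141 and 928 bp). Of these edges, 423 (58.6%) agreed within 500 bp. In 360 of the 361 members the replicate regions overlapped each other, and in the remaining one they did not. The median offset was 362 bp for members of 2 to 5 kb and 348 bp for those of 10 to 20 kb, and 634 bp for the 7 of 20 kb or more. The replicate 2 region was the longer one in 181 of the 361. By length it was the longer one in 118 of 213 members of 2 to 5 kb, in 36 of 87 of 5 to 10 kb and in 1 of 7 of 20 kb or more. Its start lay a median of 27 bp lower and its end 40 bp higher. Across these 361 members Spearman's rho between replicates, as a description, was 0.82 for length and 0.76 for score. Within classes of length it was mostly lower. It was 0.04 and 0.53 under 2 kb (21 members) and 0.45 and 0.46 from 2 to 5 kb. From 5 to 10 kb it was 0.75 and 0.68, and from 10 to 20 kb it was 0.73 and 0.77. For the 7 of 20 kb or more it was 0.86 and 0.46.

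Long domains were often called in pieces. Of the 667 members found in both replicates, 496 held a single replicate 1 region and 518 a single replicate 2 region. Among the 73 members of 20 kb or more, only 26 and 21 did so, and the median was 2 pieces in each replicate. The most divided member in replicate 1 had 8 regions (14871896 to 14922476, 50.6 kb, 90.7% covered). Replicate 2 had 5 regions there and covered 95.8%. The next, from 22624592 to 22674012, was 7 regions in replicate 1 and 1 in replicate 2, at 92.0% and 96.4% covered. In the other direction, the domain from 19115550 to 19172256 was 1 region in replicate 1 and 9 in replicate 2, at 99.8% and 90.9% covered. These members were picked for their number of pieces. A replicate region could also bridge members: 44 replicate 1 regions and 70 replicate 2 regions lay on several members, at most 3.

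The 10 longest members found in both replicates were 56.7 to 90.8 kb long and together made up 737 kb, or 10.2% of the members' bases. The part of each that both replicates marked ran from 86.2% to 96.2%. Their scores ran from 0.82 to 1.38, below the 10 highest-scored members. Only 1 of the 10 was a single region in replicate 1, and only 1 in replicate 2.

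The longest (10217008 to 10307772, score 1.30) was 3 regions in replicate 1 and 1 in replicate 2, and stood clear of its neighbours by 21.0 kb on the centromere side and 87.8 kb on the telomere side. The domain from 4893860 to 4984342 (90.5 kb, score 1.14) was 3 regions in each replicate and had its next neighbour 253 bp away. The domain from 21341762 to 21428866 (87.1 kb, score 1.04) was covered over 98.8% in replicate 1 by 3 regions and over 92.7% in replicate 2 by 7. Some long domains were thus isolated and others were the core of a larger cluster.

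The domain nearest the telomere among these, from 27721448 to 27803796, was 82.3 kb long with a score of 1.38, the highest of the 10. It was 98.4% covered in replicate 1 and 94.0% in replicate 2. The domain from 6365090 to 6440304 (75.2 kb, score 1.13) was 95.2% and 98.4% covered, by 6 and 3 regions. The domain from 21224688 to 21298628 (73.9 kb) had the lowest score of the 10, 0.82, and was 97.1% and 91.9% covered. These 3 again differed little in coverage between replicates.

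The other 4 were 56.7 to 60.9 kb long. The domain from 16979086 to 17039944 (60.9 kb, score 1.17) showed the widest gap between replicates, with 99.9% of it covered in replicate 1 and 86.2% in replicate 2. The domain from 24884464 to 24944566 (60.1 kb, score 1.27) was 92.6% and 96.9% covered. The domain from 10490386 to 10550332 (59.9 kb, score 1.19) was 97.5% and 98.1% covered. The tenth was the domain from 19115550 described above, with a score of 0.86.

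**Figure D3:**
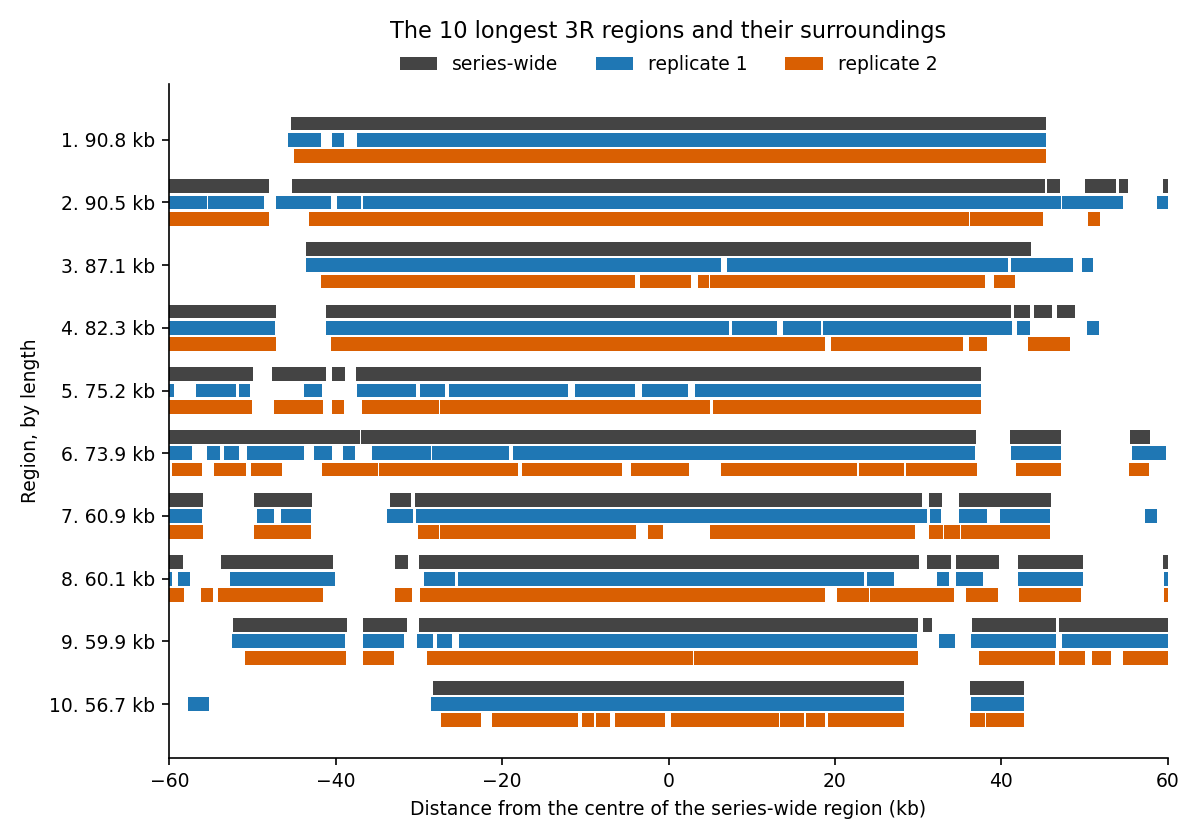
The 10 longest members, one per row from 90.8 to 56.7 kb, drawn with regions of the series-wide list and of each replicate by distance from the member's centre (horizontal axis, kb). All 10 are divided in at least 1 replicate, and the last row shows 1 replicate 1 region against 9 in replicate 2.

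Not every long member was held equally by both replicates. The 3 of 20 kb or more with the smallest share in both, picked for that, show the range. The member from 18085256 to 18105442 (20.2 kb, score 0.41) was 22.9% covered in replicate 1 and 90.2% in replicate 2, and 17.5% was enriched in both. The member from 12633210 to 12655434 (22.2 kb, score 0.54) was 72.8% and 68.7% covered, with 42.5% in both. The member from 22707720 to 22731364 (23.6 kb, score 0.66) was 69.9% and 85.9% covered, with 59.9% in both. All 3 scored below the class median of 1.08, and overlap by at least 1 bp counts each of them as found in both. The median member of the class had 90.8% of its bases in both.

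The 10 highest-scored members found in both replicates were shorter, from 6.94 to 23.9 kb, with scores of 1.75 to 2.18, and none was among the 10 longest. All 10 were a single region in replicate 1 and 6 were in replicate 2. The first, from 4636534 to 4647058 (10.5 kb, score 2.18), was fully covered in replicate 1 and 89.5% covered in replicate 2. It had another member 33 bp away on one side and 605 bp on the other. The second, from 5166804 to 5190432 (23.6 kb, score 2.16), was 95.8% and 94.7% covered, and its region in replicate 2 had the highest score of that list on the arm, 2.05. The third, from 2232202 to 2243502 (11.3 kb, score 1.96), was 98.2% and 99.1% covered. The second was 2 regions in replicate 2. All 10 were picked among members found in both replicates, so their presence in both was set by the choice. That choice left out the members with scores of 2.22 and 2.12, each of which lacked a region in 1 replicate.

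The rest followed closely. The shortest of the 10 ran from 24425294 to 24432228 (6.94 kb, score 1.91), and the longest from 23388438 to 23412372 (23.9 kb, score 1.87). The member from 14739950 to 14754302 scored 1.85. A pair of them, from 10467964 to 10481664 (score 1.80) and from 10556776 to 10566944 (score 1.81), flanked the 59.9 kb domain at 10490386, so 3 named members lay within 1 cluster. The member from 9460128 to 9472420 (score 1.79) bordered 169 kb without any member on its centromere side. The last ran from 12067928 to 12075926 (8.00 kb, score 1.75). The part of each of the 10 that both replicates marked ran from 87.2% to 98.0%.

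Many members lay close to their neighbours. Of the 1052 gaps between neighbours, 346 (32.9%) were under 1 kb, and the median gap was 2755 bp. Of all members, 571 (54.2%) had a neighbour within 1 kb. This held for 50.7% of the members of 20 kb or more and 53.7% of those under 2 kb, so the nearest neighbour was about as close at any length. When members less than 5 kb apart were joined, the 1053 became 425 clusters, of which 180 were single members and 134 spanned 20 kb or more. The largest cluster held 17 members over 206 kb (4865136 to 5071164), of which 86.4% was enriched in replicate 1 and 72.6% in replicate 2. The next held 7 members over 157 kb (10467964 to 10624782), at 91.6% and 85.2%. A cluster of 10 members over 106 kb (17959538 to 18065580) was 46.8% covered in replicate 1 and 70.2% in replicate 2, which is the widest difference among the 10 largest. Neighbours were near one another but not alike in score, with a Spearman's rho of 0.11 over 1052 neighbouring pairs.

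Long empty stretches lay between the clusters. There were 52 gaps of at least 100 kb between members, which made up 8.50 Mb or 32.8% of the stretch. Of these bases, 0.90% were enriched in replicate 1 and 0.23% in replicate 2. Overlaps of a replicate region with a gap numbered 73 and 34. The gaps were picked for holding no member. Members took in 99.9% of the bases marked in both replicates, 60.1% of those in replicate 1 alone and 77.3% of those in replicate 2 alone. Low coverage of the gaps was thus largely built in and is no independent agreement. The longest gap ran over 353 kb, from 23791219 to 24144227, with 501 bp enriched in replicate 1 and 9 bp in replicate 2. The next were 312 kb (6719815 to 7031671), with 1.89% and 0.42% covered, and 254 kb (23118411 to 23372891), with 0.11% in replicate 1 and 0 regions in replicate 2. A gap has no enriched call. How many reads could be placed in it is unknown, so these values do not show that the mark was absent.

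Coverage varied along the arm far more than between replicates. Over 25 full windows of 1 Mb from 2 Mb on, the mean share of the replicates ran from 8.84% to 48.6% with a median of 24.0%, while the median SD between replicates was 1.45 points. The replicates ordered the windows alike, with a Spearman's rho of 0.94 over 25 windows, as a description. The most covered was 5 to 6 Mb, with 50.4% in replicate 1 and 46.8% in replicate 2. It was followed by 10 to 11 Mb, with 39.9% and 38.8%, and by 19 to 20 Mb, with 40.3% and 37.6%. The least covered was 13 to 14 Mb, with 9.59% and 8.10%, then 3 to 4 Mb, with 13.0% and 10.4%, and 8 to 9 Mb, with 12.8% and 13.8%. These 6 windows were picked by the mean of the same 2 replicates.

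A window could be well covered in different ways. The window from 5 to 6 Mb had 72 members, 10 of them of 20 kb or more. The window from 10 to 11 Mb reached its coverage with 38 members, 5 of them that long. The window from 11 to 12 Mb had 65 members and none that long, and was 19.7% covered in replicate 1 and 22.8% in replicate 2. Across the 25 windows the mean covered share had a Spearman's rho of 0.74 with the number of members of 20 kb or more and 0.55 with the number of all members. Members and replicate regions share most of their bases, and a long member adds more of them. Such relations are thus partly built in. Among these 25 windows the widest difference between replicates was in 21 to 22 Mb, with 34.6% in replicate 1 and 29.2% in replicate 2.

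**Figure D4:**
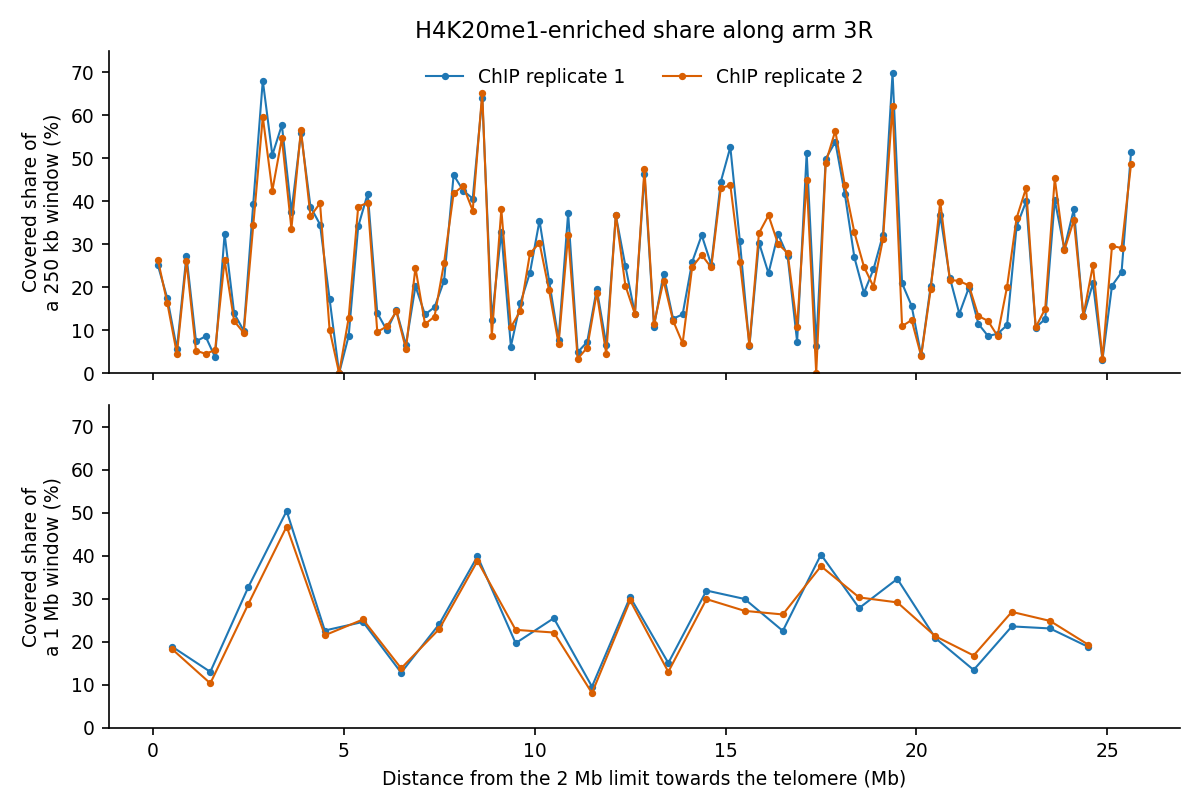
Share of each window covered by enriched regions (vertical axis, percent) in the ChIP replicates, over windows of 250 kb (top) and 1 Mb (bottom), against distance from the 2 Mb limit (horizontal axis, Mb). The lines of the replicates mostly run together, with 1 Mb windows between 8.10% and 50.4%. In the top panel they part most at 18 to 18.25 Mb of the arm, with 23.2% in replicate 1 and 36.7% in replicate 2.

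Shorter windows put the peak elsewhere. With windows of 500 kb the most covered one started at 19.5 Mb, and with 250 kb it was 21.25 to 21.5 Mb, with 69.8% in replicate 1 and 62.2% in replicate 2. Next among the 250 kb windows were 10.5 to 10.75 Mb, with 64.0% and 65.3%, and 4.75 to 5 Mb, with 68.1% and 59.6%. Of the 103 windows, 7 had a mean above 50% and 6 had a mean under 5%. The replicates differed most from 18 to 18.25 Mb, with 23.2% in replicate 1 and 36.7% in replicate 2. In 1 window, 6.75 to 7 Mb, neither replicate had an enriched base. From 19.25 to 19.5 Mb replicate 1 had 6.30% and replicate 2 had none. The steps were steep: the window from 19.5 to 19.75 Mb, next to that one, was covered over 49.9% and 49.0%.

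Broad parts of the arm differed less than single windows did. A broad part averages over many windows, so this is partly built in. Cut into 3 parts of 8.64 Mb, the part nearest the centromere was covered over 26.2% ± 1.05 (mean ± SD, n = 2), the middle part over 23.3% ± 0.55 and the part nearest the telomere over 26.1% ± 0.59. The parts held 347, 347 and 359 members, with 29, 21 and 23 of 20 kb or more. The middle part was the lowest in each replicate, at 23.7% and 22.9%. The last 0.905 Mb of the arm, past the last full window, was covered over 35.0% in replicate 1 and 37.1% in replicate 2, with 40 members.

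The arm was set beside 2L, 3L and X, each without the 2 Mb next to its own centromere. The arm 2R was not part of this comparison. No test was made, because all arms were measured in the same 2 libraries and neither regions nor windows are replicates. In replicate 1, 25.4% of 3R was covered, against 24.7% of 2L, 28.0% of 3L and 23.2% of X. In replicate 2 it was 24.9%, against 22.3%, 24.8% and 21.2%. Coverage of 3R thus lay above that of X and 2L in each replicate, by 2.26 and 3.72 points over X and by 0.70 and 2.64 points over 2L. Against 3L the order turned between replicates, at -2.57 and 0.10 points. The mean differences were 2.99 ± 1.03 points from X, 1.67 ± 1.38 from 2L and -1.24 ± 1.89 from 3L (3R minus the other arm, mean ± SD, n = 2).

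On 3R the replicates differed little in how much they covered. Replicate 1 covered 1.02 times as much of 3R as replicate 2, against 1.11 times for 2L, 1.13 for 3L and 1.09 for X. The Jaccard index of 68.2% compared with 64.1% for 2L, 65.2% for 3L and 57.9% for X. Of the series-wide regions, both replicates held 63.3% for 3R, 64.1% for 2L, 64.6% for 3L and 56.1% for X. Among these arms 3R was thus not the highest by regions, and by bases it was.

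Domains of 20 kb or more were about as frequent on 3R as on 2L and 3L in replicate 1, at 2.12 per Mb against 2.09 and 2.17. In replicate 2 there were 1.93 per Mb on 3R, against 1.48 and 1.60. X had 1.37 and 0.88. Such domains held 29.5% of the enriched bases of 3R in replicate 1 and 25.8% in replicate 2. The shares were 27.7% and 22.8% on 2L, 26.2% and 22.3% on 3L, and 18.7% and 13.7% on X. This share was the highest of the 4 arms on 3R in each replicate. Within the replicates it lay 1.78 and 2.98 points above 2L (mean 2.38 ± 0.85, SD, n = 2), 3.27 and 3.47 points above 3L, and 10.8 and 12.1 points above X.

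**Figure D5:**
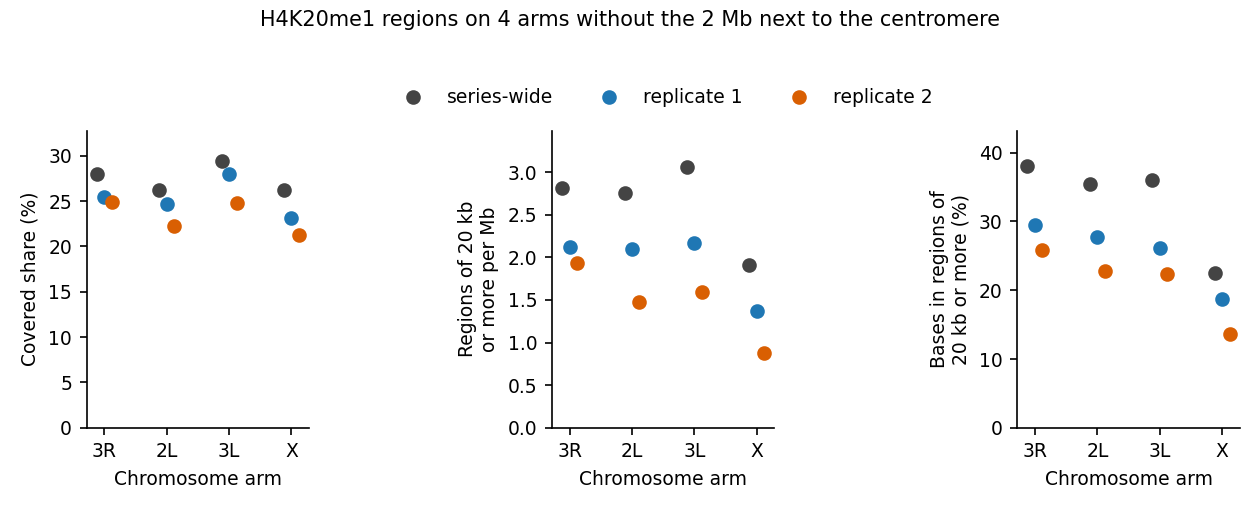
Covered share (left, percent), regions of 20 kb or more per Mb (middle) and share of enriched bases in such regions (right, percent) on 3R, 2L, 3L and X, as 1 point per list. Points for 3R lie above those for X in every list, while the order of 3R and 3L in covered share differs between the replicates.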

How the data were processed

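The authors deposited 3 lists of regions of significant enrichment, 1 per ChIP replicate and 1 for the series, on FlyBase release 5 per the file headers. Bowtie 0.12.7 is named in the submitters' processing notes. No source used here gives the region caller, its threshold or how the series-wide list combines the replicates, and the inputs enter only through the authors' calls. Each region has a start, an end (clipped at the arm's end where needed) and a score. The deposited score is taken as a log2 value that the authors computed for each region, with an unknown offset and no stated definition. This scale was read from the values: once a recurring score was subtracted, the power of 2 gave quotients of whole numbers (denominator at most 2000, relative tolerance 1e-11) for 82.6 to 96.4% of each list, against at most 1.13% for other logarithms.

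Depth is unknown. Bases were counted per position, overlap needed at least 1 bp, and windows start at 2 Mb. Regions within a stated distance were joined where said. Python 3.11.15, numpy 2.4.6, pandas 2.3.3, scipy 1.17.1 and matplotlib 3.10.9 were used. The interval functions recovered the known answers in 20 of 20 simulated pairs of lists. With 1 condition and 2 replicates, no test was made. Named are the 10 longest and, by score, the 10 leading members found in both replicates, the 3 most divided ones per replicate, the 3 longest gaps, the 3 most and least covered windows, the longest member in neither replicate and the regions at the 2 Mb limit. Any other region says why it was picked. Members, rule and alternatives were chosen with earlier results of these data known. The gene table given is of release 6 and was not used to place genes.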

Additional observations from a re-analysis of the deposited data

How the results depend on the processing

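No result has a test, so the settings show how far values move. The covered share of 3R (25.2%) was 19.2% with the upper-scoring 50% of regions, 23.0% without regions under 2 kb and 25.7% with regions within 1 kb joined, and 24.9 to 25.4% with either replicate left out. The Jaccard index (68.2%) was 65.4%, 70.4% and 69.3% under these 3 settings. Of the members, 667 overlapped both replicates. The count was 585 when each replicate had to cover 50% or more of the member, and 479 when a reciprocal overlap of 50% was required. Leaving out regions under 2 kb from every list gave 515 of 729. Against the full replicate lists, 631 of the same 729 members overlapped both, so cutting the replicate lists lowered this count. Keeping the upper-scoring 50% of each list gave 334 of 488. That setting too cut the members and the replicate regions together. Against the full replicate lists, 250 of 263 members scoring from 0.46 to 0.82 overlapped both, as did 261 of 263 above that. These are not exactly the 488 members, and the part of each cut at this setting was not tested. The difference from 3L (-1.24 points) turned to 0.64 with whole arms and ran from -2.57 to 0.10 with either replicate left out; replicate 2 alone gives 0.10, and the cause was not tested. The difference from X (2.99) was 4.67 with whole arms and 1.69 with the upper-scoring 50%, and ran from 2.26 to 3.72 with either replicate left out. That from 2L (1.67) was 0.70 without replicate 2 and 2.64 without replicate 1. The most covered window started at 5 Mb, at 19.5 Mb with windows of 500 kb and at 21.25 Mb with 250 kb. The median share of the 20 named regions enriched in both replicates was 92.2%, and 95.6% with regions within 1 kb joined. For 13 of these 20 the change was smaller than the spread between replicates. There were 73 members of 20 kb or more, 93 when joined within 1 kb and 72 in the upper-scoring 50%. No paired analysis was possible because the inputs have no region lists here to set against the ChIP lists. The arms were compared within each replicate. Depth is unknown, and its part in which short regions a replicate holds was not tested.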
